A study of Mus musculus with 24 samples.

Results

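This account sets 8 toxin-treated constructs against 16 constructs from mice that received no toxin, out of 24 sequenced constructs in all. The toxin-treated samples were 4 columns of (dep)BCP+MSC+RvE1inj and 4 of (dep)BCP+MSC, and the others were 4 columns each of BCP+MSC+Treg, BCP+MSC+RvE1, BCP+MSC and the bare BCP carrier. The members were taken from the sample labels and from no measured value, and the question was which transcripts differed in both toxin groups from each of the 4 other groups.

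All recipients, untreated mice included, were male or female Foxp3-DTR/eGFP mice aged 8 to 9 weeks at implantation, in which the receptor for diphtheria toxin and a green fluorescent protein are expressed under Foxp3. BCP is a granular biphasic calcium phosphate carrier, implanted under the skin of the back alone or seeded with mesenchymal stromal cells (MSC) from the bone marrow of C57BL/6J mice. In BCP+MSC+RvE1 the seeded cells were first exposed to 10 nM resolvin E1 (RvE1), a lipid mediator of the resolution of inflammation, and in BCP+MSC+Treg they were first cultured with sorted regulatory T cells (Treg), added to the same construct. Both toxin groups carried BCP+MSC and were given 50 µg/kg diphtheria toxin into the peritoneum repeatedly until day 10, and (dep)BCP+MSC+RvE1inj also received 1 µM RvE1 injected daily at the implant. Constructs were collected at week 2, with 4 samples per group and each sample from its own animal. No vehicle injection was described for the untreated groups, so toxin, injections and any separate handling of these mice cannot be told apart, and BCP differs from the toxin groups in lacking MSC as well. The RNA of a construct comes from host cells that grew in, from neighbouring skin and muscle, and from the implanted cells, and in such bulk samples fewer cells of a type and less RNA per cell cannot be told apart.

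Diphtheria toxin enters cells through its receptor and stops protein synthesis, so that in these mice cells with active Foxp3 die. Foxp3 is the defining transcription factor of Treg, the CD4+ T cells that restrain other T cells and myeloid cells. Around an implant of this kind, fibroblasts lay down a collagen-rich tissue and macrophages fuse into giant cells on the granules. Glucocorticoids, hormones of the adrenal gland, act on most of these cells through a nuclear receptor that switches on genes such as Fkbp5, Tsc22d3 and Per1.

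Library size was uneven, from 8482701 to 144417743 counted reads, a 17.0-fold range. It was 8482701 to 85519916 in the toxin-treated samples and 10567666 to 144417743 in the others, and 3 of the 8 and 4 of the 16 were among the 7 libraries under 20000000 counts. A count of 3, taken as the floor of detection, was worth 0.354 CPM (a read count divided by the size of its library, on a scale shared by all samples) in the shallowest library and 0.0208 CPM in the deepest. On the second principal component (23.6% of the variance), (dep)BCP+MSC replicate 1 lay at 100.4 and replicate 2 at 77.9, while the other 6 toxin-treated samples lay between 12.2 and 36.8 and the untreated samples between -55.3 and 5.5. Skin markers were high in replicate 1: the mean level of 19 skin and hair follicle genes was 3.31 on the log2 CPM scale there, against -2.56 to -0.04 in the other toxin-treated samples and -3.34 to 0.16 in untreated ones. Counts of genes are therefore also given without these 2 libraries. By sex-linked genes, 2 of the 8 and 5 of the 16 samples were female. The groups were uneven, with 3 of 4 female in BCP+MSC, 2 of 4 in (dep)BCP+MSC and 1 of 4 in BCP and in BCP+MSC+Treg. BCP+MSC+RvE1 and (dep)BCP+MSC+RvE1inj had 0 of 4.

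Foxp3 itself was measured first. In CPM, scaled between libraries by the TMM method, (dep)BCP+MSC samples held 1.69, 0.891, 0.976 and 0.378 and (dep)BCP+MSC+RvE1inj samples 0.701, 0.754, 0.298 and 1.07, and the untreated samples ranged from 0.356 over a median of 0.895 to 2.14. The arms overlapped, with 1 of the 8 toxin-treated samples below the lowest untreated one and none above the highest. Here and below, (dep)BCP+MSC values are given in the order replicate 1, replicate 2, column 4 and column 5, the latter named by their columns because no label ties them to a replicate, and (dep)BCP+MSC+RvE1inj values in the order of replicates 1 to 4. The log2 fold change was -0.15 ± 0.31 (SE), with an adjusted p of 0.832 in edgeR's quasi-likelihood test and p = 0.537 in an exact two-sided permutation test over all 735471 arrangements of the samples. Counts of Foxp3 were 4 to 83 in the toxin-treated libraries and 7 to 158 in the others. Foxp3 overlaps Ccdc22 and Flicr, and reads that touched more than 1 gene were left out of the counts. The toxin was last given on day 10, before collection at week 2. By flow cytometry, the paper reports fewer Treg after toxin in lymph nodes and spleen, with its last check at the time of collection. That is a different measure in other tissues than RNA of the construct.

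In what follows, a value given after a gene is its pooled log2 fold change (mean of the toxin groups over mean of the 4 others), with ± its SE, from 8 against 16 samples. Genes that mark or serve Treg did not move as one. Of 22 tested genes of the Treg signature, 7 rose, 3 fell and 12 did not pass the test, with a median log2 fold change of 0.32. The share was read against the pooled comparison of all 8 with all 16 samples, in which 8.79% of 30564 genes were higher and 7.17% lower at an adjusted p under 0.05. Ctla4, a coinhibitory receptor, rose, at 7.44 to 16.9 CPM with toxin and 1.1 to 7.91 CPM without (1.88 ± 0.28, adjusted p = 5.76e-05), and the coinhibitory receptor Tigit (1.83), the chemokine receptor Ccr8 (1.94) and the costimulatory receptor Icos (1.26) rose as well. The high-affinity interleukin 2 receptor chain Il2ra was at 1.69 to 11.3 CPM against 3.88 to 9.32 (log2 fold change 0.25, adjusted p = 0.552), and Ikzf2, the transcription factor Helios, was at 0.10 (adjusted p = 0.80). Lower were Lrrc32, which holds latent TGF-beta at the cell surface (-1.58 ± 0.17), the ectonucleotidase Entpd1 (-0.67) and Ebi3, a subunit of interleukins 27 and 35 (-1.10). Lrrc32 had 264 to 18774 reads in a library and Entpd1 476 to 12238, against 4 to 158 for Foxp3. The cells that carried these reads were not identified, so the falls are not a measure of Treg. Without the 2 (dep)BCP+MSC libraries that stand apart, 7 of the 22 genes rose and 2 fell, and Entpd1 no longer passed.

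Across all genes, the pooled comparison called 2686 higher and 2192 lower, and the median log2 fold change of all genes was -0.01. Of these calls, 2548 (8.34% of genes tested) and 2141 (7%) had the same sign in each of the 8 contrasts of a toxin group with an untreated group. The strictest rule asked a gene to differ in all 8 contrasts, by adjusting the largest of its 8 p-values over all genes, and it left 4 higher genes (0.0131%) and 7 lower ones (0.0229%). The adjusted value is called the strict adjusted p here, and 360 higher and 523 lower genes had a largest p under 0.05 before adjustment. With each contrast adjusted on its own, 20 genes (0.0654%) were higher in all 8 and 31 (0.101%) lower. In 118 genes (0.386%) every toxin-treated sample was above every untreated one, and in 192 (0.628%) every one was below. Taken one at a time, (dep)BCP+MSC differed from BCP in 5.17% of genes, from BCP+MSC in 3.92%, from BCP+MSC+RvE1 in 4.94% and from BCP+MSC+Treg in 3.18%. For the injected group the same shares were 2.55%, 0.72%, 0.609% and 0.301%. The 8 contrasts share samples and are not independent of each other. Without the 2 (dep)BCP+MSC libraries that stand apart, the pooled comparison called 1229 higher and 975 lower, and the strict rule 3 and 2.

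Which genes met the strict rule depended on single libraries. The count of 4 higher genes stayed within 1.5-fold without BCP replicate 2, BCP+MSC replicate 3 or 4, BCP+MSC+RvE1 replicate 1 or any (dep)BCP+MSC library, was 7 without (dep)BCP+MSC+RvE1inj replicate 1, and was 1 or 2 without any other library. The count of 7 lower genes stayed within 1.5-fold without BCP+MSC+Treg replicate 2, (dep)BCP+MSC+RvE1inj replicate 1 or any (dep)BCP+MSC library and was between 0 and 4 without any other. Over 35 alternatives the call of Fkbp5 was kept in 34, that of Sfrp4 in 28, Cx3cr1 in 21, Fap in 18, Arsi in 16, Depp1 in 15, Arrdc2 and Fam107a in 14 each, Spon2 in 12, Col15a1 in 11 and Clec11a in 8. In the pooled comparison all 11 kept their call in all 36 alternatives. That comparison asks less than the rule that picked them from these same samples, so this was likely beforehand.

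**Figure D1:**
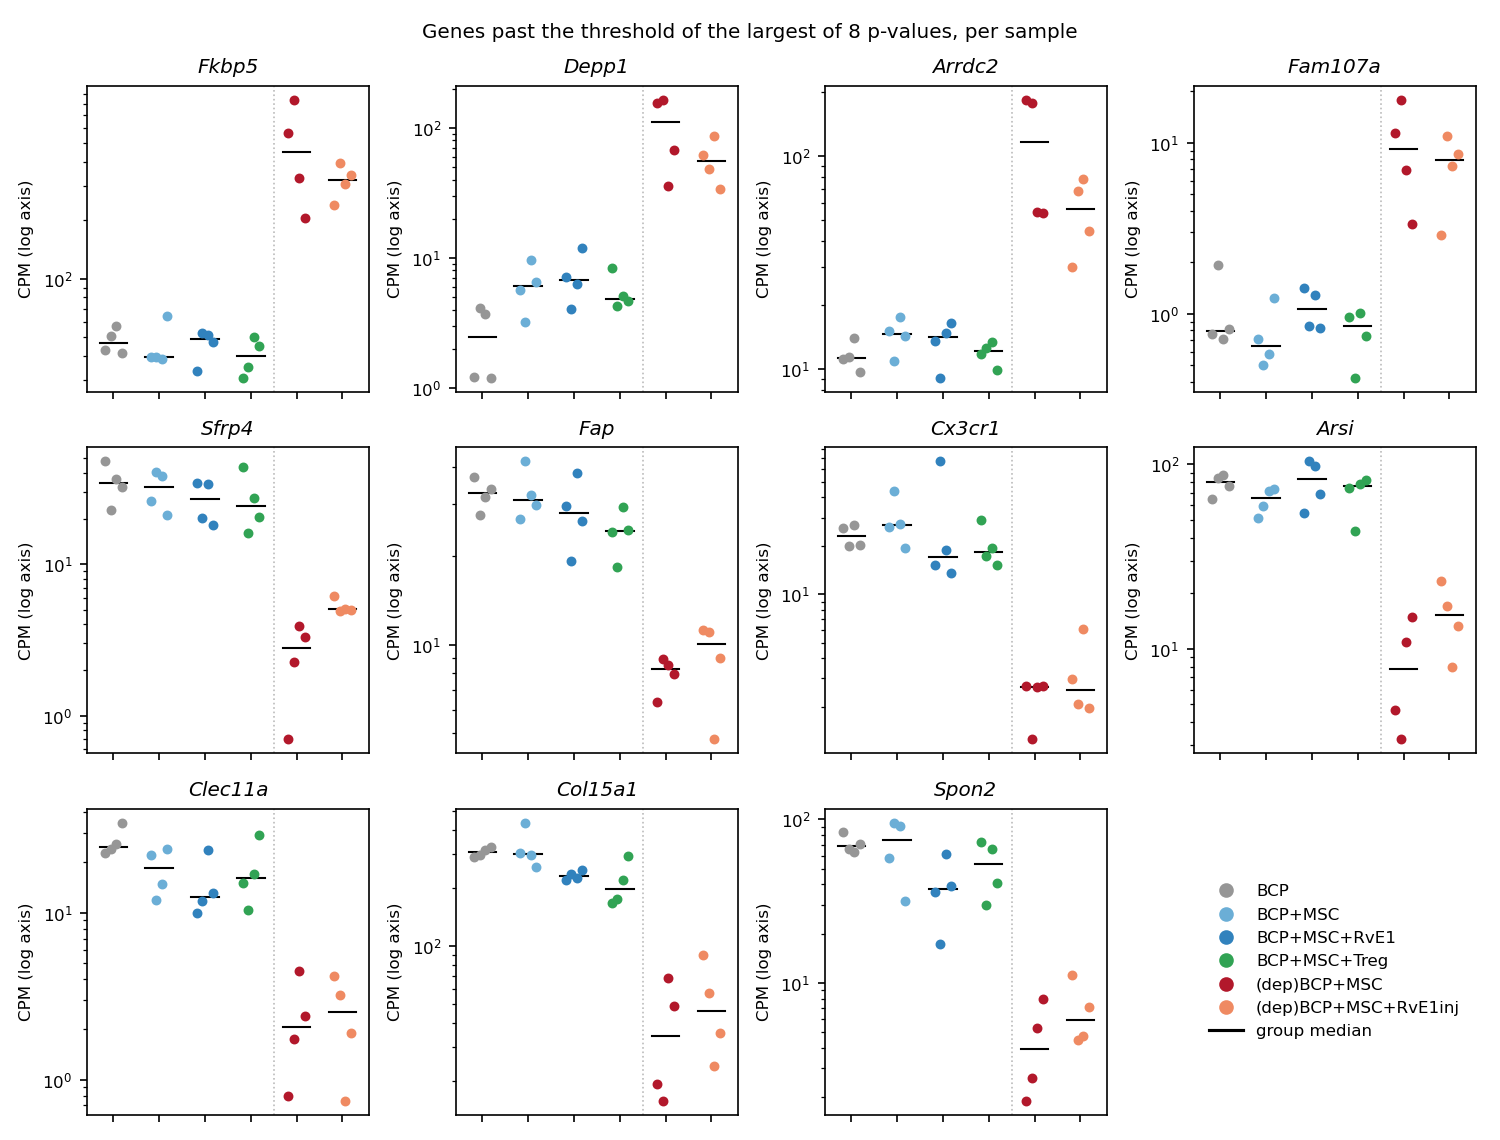
Level of the 11 genes that differed in all 8 contrasts, in each of the 24 samples, on a log axis in CPM, with 1 column of points per group and a bar at the group median. The 8 toxin-treated samples sit above all 16 others for Fkbp5, Depp1, Arrdc2 and Fam107a and below all of them for the 7 lower genes.

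Fkbp5, a co-chaperone that restrains the glucocorticoid receptor and is itself one of its best known targets, held best. It lies at chr17:28399095-28517524 (GRCm38). Its level was 569, 840.1, 332 and 205 CPM in (dep)BCP+MSC and 242, 396, 309 and 342 CPM in (dep)BCP+MSC+RvE1inj, against a lowest, median and highest of 30.7, 43.8 and 64 CPM in the 16 untreated samples. The lowest toxin-treated sample was thus several times above the highest untreated one. The pooled log2 fold change was 3.15 ± 0.18, with an adjusted p of 5.25e-11, the 8 contrasts gave 2.75 to 3.60, and the strict adjusted p was 2.14e-04.

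Depp1, named for its induction by progesterone in the decidua and a target of FoxO factors (chr6:116650609-116652794), was at 154, 164, 35.7 and 67.1 CPM in (dep)BCP+MSC and at 61.7, 48.4, 86.7 and 33.9 CPM in (dep)BCP+MSC+RvE1inj. Untreated samples ranged from 1.2 to 12 CPM with a median of 4.87. The groups did not overlap, and the log2 fold change was 3.92 ± 0.29 (2.95 to 5.31 over the 8 contrasts, strict adjusted p = 0.0425). Arrdc2, an arrestin-domain protein (chr8:70835129-70839720), was at 183, 177, 54.3 and 53.9 and at 30.1, 68.2, 78.1 and 44.4 CPM in the same order, against 9.09 to 17.5 with a median of 12.9. Its log2 fold change was 2.65 ± 0.20 (1.93 to 3.34 over the 8 contrasts, strict adjusted p = 0.0425). Fam107a, an actin-binding protein known to respond to stress and glucocorticoids (chr14:8296274-8318023), was at 11.5, 17.9, 6.99 and 3.34 and at 2.87, 10.9, 7.31 and 8.65 CPM, against 0.421 to 1.94 with a median of 0.822. Its log2 fold change was 3.23 ± 0.28 (2.76 to 3.70 over the 8 contrasts, strict adjusted p = 0.0425). For all 3 genes every toxin-treated sample lay above every untreated one.

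The next 10 higher genes by the size of their largest p, among those the naming rule allowed, also did not overlap between the arms, without passing the strict rule. Selenop, the selenium carrier of plasma, was at 2536 to 4087 CPM with toxin and 609 to 1808 without (1.44 ± 0.17), and Glul, glutamine synthetase, at 1008 to 2016 against 353 to 948 CPM (1.53 ± 0.17). The pooled log2 fold changes were 2.94 for Galnt15, which starts O-glycans, 1.73 for Cd38, an NAD+-consuming enzyme of leukocytes, 2.18 for Pik3ip1, an inhibitor of phosphoinositide 3-kinase, 1.57 for Cirbp, a cold-induced RNA-binding protein, 1.97 for Ms4a8a, a membrane protein of the MS4A family, and 2.31 for Olfr920, listed among olfactory receptors. H2-Q6, a class Ib major histocompatibility gene, was at 1.55, but it has near-identical neighbours whose shared reads were left out of the counts. Kif28, a kinesin that overlaps Ahctf1, had 9 to 95 reads in each toxin-treated library and 0 to 11 in each untreated one, most of them at or under the floor of 3 reads, so no fold is given.

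**Figure D2:**
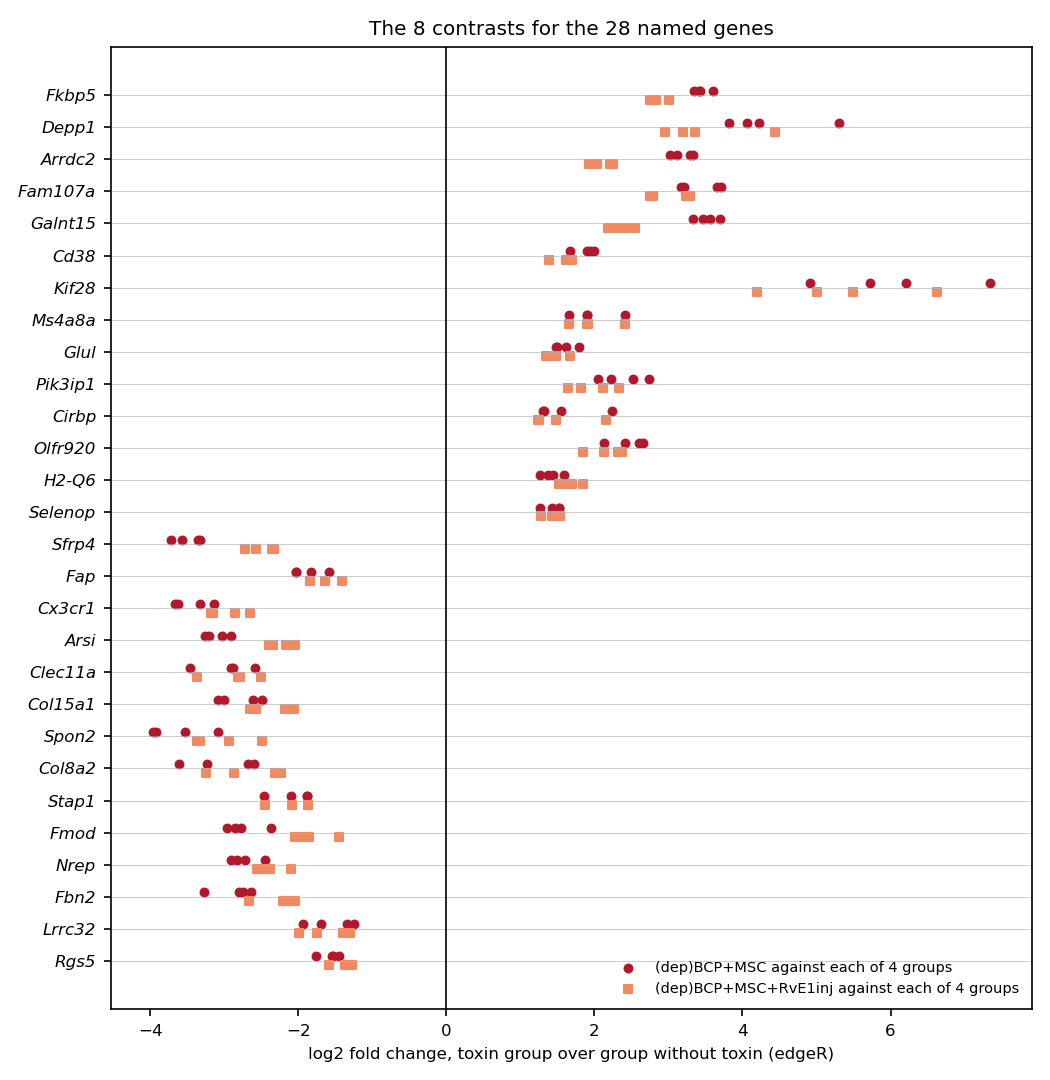
Log2 fold change of the 28 genes named by the rule (14 higher, 14 lower) in each of the 8 contrasts, with 1 row per gene, 1 point per contrast of a toxin group with an untreated group, circles standing for (dep)BCP+MSC and squares for (dep)BCP+MSC+RvE1inj. The rule took only genes whose 8 points fall on 1 side of 0. They run from 2.75 to 3.60 for Fkbp5 and from -3.72 to -2.33 for Sfrp4.

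Most glucocorticoid-responsive genes were higher. Of 25 tested members, 17 rose and 0 fell, against 8.79% and 7.17% of all genes. All 17 had the same sign in all 8 contrasts, as had 2548 of the 2686 higher calls among all genes. All 25 had a positive log2 fold change, with a median of 1.60. The mean log2 CPM of the list was 5.97 to 7.41 with toxin and 4.56 to 5.39 without, so the arms did not overlap. Tsc22d3, the glucocorticoid-induced leucine zipper, was at 272 to 567 CPM with toxin and 67.5 to 267 CPM without (1.60 ± 0.19, adjusted p = 4.44e-06), and every toxin-treated sample was above every untreated one. The transcription factors Zbtb16 (2.46), Klf9 (1.78) and Klf15 (2.46), the mTOR inhibitor Ddit4 (1.86) and the iron-siderophore binder Lcn2 (2.64) rose too, and Lcn2 is also a granule gene counted among the neutrophil genes below. Sgk1 and Dusp1, also classical targets, were at 0.22 (adjusted p = 0.307) and 0.19 (adjusted p = 0.692). Without the 2 (dep)BCP+MSC libraries that stand apart, 12 rose and 0 fell, and Klf9 and Mt1 no longer passed.

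Genes of muscle atrophy and fasting moved in the same direction. Of 16 tested, 9 rose and 0 fell, all 16 log2 fold changes were positive, and the median was 0.96. Pdk4 and Cdkn1a, called here, are also among the called glucocorticoid genes, so the lists are not separate. Trim63, a ubiquitin ligase of muscle wasting, was at 2354, 3527, 405 and 459 CPM in (dep)BCP+MSC and 73.3, 667, 993 and 417 CPM in (dep)BCP+MSC+RvE1inj, against 0.641 to 75 CPM with a median of 36.3 without toxin. Only the lowest toxin-treated sample overlapped the untreated range, and the log2 fold change was 4.77 ± 0.58 (adjusted p = 2.04e-05). The ligase Fbxo32 (2.58 ± 0.24), the transcription factor Foxo1 (1.20), Pdk4, which turns muscle from glucose to fat (2.51), and Fbxo31, a subunit of ubiquitin ligases (2.50), rose as well, while Mstn, the muscle growth inhibitor myostatin, was at 0.43 (adjusted p = 0.711). Muscle content varied widely: the 31 skeletal muscle genes had a mean log2 CPM of 6.78 to 9.03 with toxin and 2.81 to 9.23 without. Of these muscle genes 5 rose and 2 fell. Leaving out 1 library at a time moved the higher count to between 0 (without (dep)BCP+MSC+RvE1inj replicate 3) and 8 (without BCP+MSC replicate 2), and without the 2 (dep)BCP+MSC libraries none was called by edgeR. Acta1, actin of muscle fibres, was at 1176 to 4424 against 91.5 to 8940.5 CPM (-0.49, adjusted p = 0.546). With the muscle score as a covariate in the model, the calls of the atrophy genes named here still passed.

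**Figure D3:**
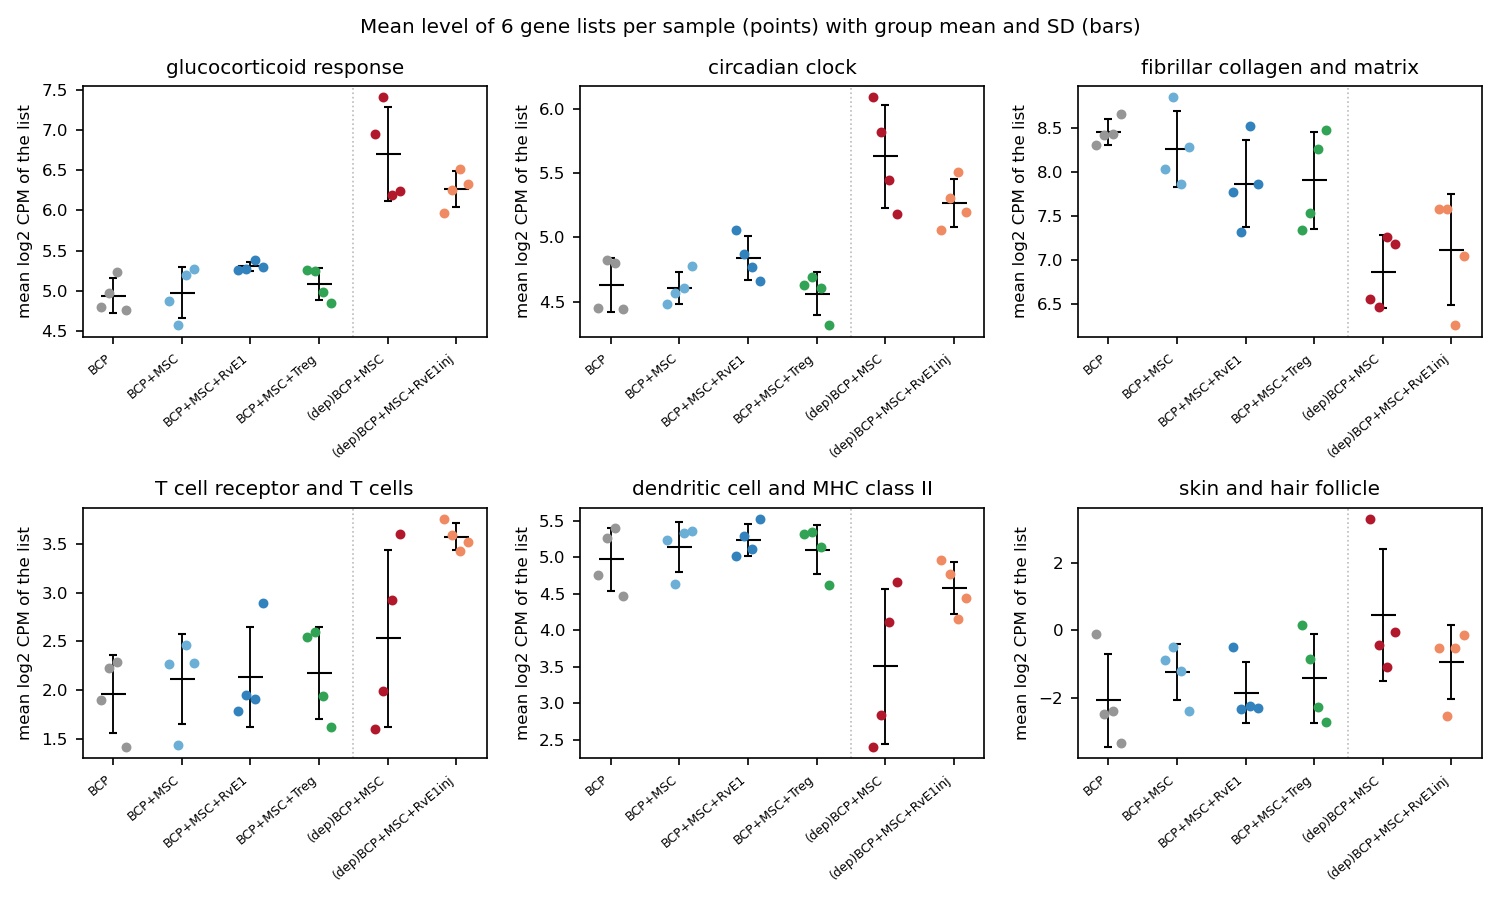
Mean log2 CPM of 6 gene lists in each of the 24 samples, with 1 panel per list, 1 column of points per group, and the group mean with its SD as a bar with whiskers (n = 4). The glucocorticoid list lies at 5.97 to 7.41 in toxin-treated samples and at 4.56 to 5.39 in the others.

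Most repressor and output genes of the clock rose. Of 20 tested, 11 rose and 2 fell, with a median of 1.25, the same counts without the 2 libraries. Per1 is counted in the glucocorticoid list as well. The mean log2 CPM of the list was 5.06 to 6.09 with toxin and 4.31 to 5.06 without. Per1, a repressor of the clock that is also a glucocorticoid target, was at 115 to 396 CPM with toxin and 28.6 to 105 CPM without (1.73 ± 0.23, adjusted p = 2.39e-05). Its partners Per2 (1.21), Per3 (1.28) and Cry2 (1.72), the nuclear receptors Nr1d1 (1.70) and Nr1d2 (1.31), and the output factors Dbp (1.33), Tef (1.30) and Ciart (1.55) rose. Rora (1.44), which drives the activator Arntl, rose as well. The activators did not rise, with Npas2 at 3.91 to 13.2 against 14.4 to 25.9 CPM (-1.27 ± 0.18, adjusted p = 3.43e-05), Arntl at -0.34 (adjusted p = 0.164) and Clock at -0.07 (adjusted p = 0.806). The count of 2 lower genes, Npas2 and Bhlhe41, was 1 when any of 16 single libraries was left out. The hour of collection was not given in the sources used here, and its part in these values was not tested.

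The start regions of Fkbp5 and Per1 are printed because these 2 genes lead the higher genes and the clock genes, and those of Mt1 and Mt2 because these metal-binding proteins are induced by both zinc and glucocorticoids. Each is a 300-base window from RefSeq (GRCm38.p6), from 250 bases before to 50 after the start, 5′ to 3′ on the strand of the gene. Capitals mark the E-box CACGTG, bound by clock activators, in Fkbp5 (chr17:28486100-28486399, minus strand) and Per1 (chr11:69098699-69098998, plus strand), and the metal response core TGCACNC or TGCGCNC on either strand in Mt1 (chr8:94178839-94179138, plus strand) and Mt2 (chr8:94172368-94172667, plus strand). In Mt1 the first run of capitals is a match to a pair of inverted glucocorticoid half-sites 3 bases apart, 95 bases before the start.
Fkbp5: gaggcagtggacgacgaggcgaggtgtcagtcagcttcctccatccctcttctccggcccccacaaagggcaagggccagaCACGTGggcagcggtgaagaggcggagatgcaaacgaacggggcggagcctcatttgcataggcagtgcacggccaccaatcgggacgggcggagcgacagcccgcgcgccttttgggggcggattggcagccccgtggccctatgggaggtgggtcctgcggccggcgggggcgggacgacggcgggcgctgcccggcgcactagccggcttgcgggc
Per1: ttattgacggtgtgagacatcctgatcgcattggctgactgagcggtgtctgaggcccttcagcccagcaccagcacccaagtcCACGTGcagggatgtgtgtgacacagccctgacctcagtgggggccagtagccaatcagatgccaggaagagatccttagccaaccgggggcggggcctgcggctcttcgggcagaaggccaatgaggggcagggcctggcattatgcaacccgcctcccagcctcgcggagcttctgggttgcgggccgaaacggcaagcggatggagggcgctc
Mt1: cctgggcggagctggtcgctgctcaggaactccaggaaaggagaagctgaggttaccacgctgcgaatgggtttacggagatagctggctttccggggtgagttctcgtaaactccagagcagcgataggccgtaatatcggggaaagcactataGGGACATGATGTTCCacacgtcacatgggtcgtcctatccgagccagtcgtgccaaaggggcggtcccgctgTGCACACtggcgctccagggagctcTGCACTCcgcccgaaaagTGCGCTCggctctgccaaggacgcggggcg
Mt2: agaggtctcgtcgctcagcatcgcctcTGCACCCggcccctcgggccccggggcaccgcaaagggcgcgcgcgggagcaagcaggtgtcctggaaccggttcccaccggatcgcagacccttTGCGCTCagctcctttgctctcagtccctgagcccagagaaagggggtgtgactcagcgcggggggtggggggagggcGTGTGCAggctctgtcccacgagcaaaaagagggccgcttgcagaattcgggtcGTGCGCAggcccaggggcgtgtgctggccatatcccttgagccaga

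The E-box was in 7.15% of all 32851 windows and in 6 of the 21 windows found for 16 genes of the clock list (28.6%), those of Bhlhe41, Ciart, Cry1, Per1 and Tef. The E-box was also in 7 of 35 windows of the glucocorticoid list (20%) and in 1 of 9 windows of strict-rule genes, that of Fkbp5. It began 169 bases before the start in Fkbp5 and 166 in Per1. The metal response core was in 25.7% of all windows and in 6 of 10 windows of the metallothionein list, and Mt1 held 3 and Mt2 held 4. It was not particular to that list, with 11 of 21 windows of the clock list (52.4%) and 11 of 35 of the glucocorticoid list (31.4%). The pair of glucocorticoid half-sites was in 0.0791% of all windows and in 2 of the 35 found for 22 genes of the glucocorticoid list, those of Mt1 and Sgk1. A match is a run of letters and not a measured binding site.

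Mt1 was at 383 to 2023 CPM with toxin and 68.3 to 915 CPM without (1.83 ± 0.42, adjusted p = 0.00503), and Mt2 at 72.4 to 322 against 5.66 to 171 CPM (2.18 ± 0.48, adjusted p = 0.00412). Both ranges overlapped. Of 9 metallothionein and zinc genes tested, 3 rose and 3 fell, and without the 2 libraries that stand apart 2 rose and 1 fell. Mt1 and Mt2 are counted in the glucocorticoid list as well. Of 23 hypoxia and glycolysis genes, 6 rose and 0 fell, with or without those libraries. The mitophagy receptor Bnip3 (1.94 ± 0.16, 185 to 525 against 32.8 to 142 CPM) and the oxygen sensor Egln3 (1.48) were among them, whereas Vegfa (-0.15, adjusted p = 0.621) and the glucose transporter Slc2a1 (0.26, adjusted p = 0.513) did not pass.

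Among the lower genes that met the strict rule, Sfrp4, a secreted antagonist of Wnt (chr13:19623175-19632821), was at 0.698, 2.26, 3.9 and 3.3 CPM in (dep)BCP+MSC and 6.13, 4.89, 5.07 and 4.97 CPM in (dep)BCP+MSC+RvE1inj. The untreated samples held 16.1 to 47.7 CPM with a median of 29.9, so that the highest toxin-treated sample was well below the lowest of them. The log2 fold change was -3.0 ± 0.26 (-3.72 to -2.33 over the 8 contrasts), with a strict adjusted p of 0.0242.

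Fap, the serine protease that marks activated fibroblasts (chr2:62500943-62574075), was at 6.38, 8.94, 8.56 and 7.98 and 11.2, 11.1, 4.78 and 9.0 CPM in the same order, against 18.3 to 41.9 with a median of 29.5 (-1.78 ± 0.16, strict adjusted p = 0.0425). Cx3cr1, the fractalkine receptor of monocytes and macrophages (chr9:119901616-120069879), was at 2.69, 1.25, 2.63 and 2.71 and 2.98, 2.09, 6.12 and 1.95 CPM, against 13.6 to 67.1 with a median of 20.1 (-3.20 ± 0.31, strict adjusted p = 0.0425). Both fell without overlap between the arms. Arsi, an arylsulfatase on chromosome 18, was at 4.69, 3.23, 10.8 and 14.9 and 23.3, 17, 7.98 and 13.3 CPM, against 43.8 to 104 with a median of 74.1 (-2.67 ± 0.25, strict adjusted p = 0.0425). Clec11a, a secreted lectin that acts on bone precursors (chr7:44302687-44306902), was at 0.798, 1.76, 4.47 and 2.39 and 4.17, 3.2, 0.746 and 1.9 CPM, against 10 to 34.6 with a median of 19.7 (-2.92 ± 0.31, strict adjusted p = 0.0425). Arsi and Clec11a were also below the untreated range in all 8 toxin-treated samples.

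Col15a1, a collagen of basement membrane borders (chr4:47208161-47313167), was at 19.1, 15.7, 68.1 and 49 CPM in (dep)BCP+MSC and 89.4, 56.7, 23.9 and 35.2 CPM in (dep)BCP+MSC+RvE1inj, against 168 to 436 with a median of 273 (-2.58 ± 0.26, strict adjusted p = 0.0425). Spon2, a matrix protein of the spondin family (chr5:33198184-33218455), was at 1.89, 2.63, 5.27 and 7.98 and 11.1, 4.47, 4.7 and 7.11 CPM, against 17.2 to 95.3 with a median of 62.2 (-3.33 ± 0.31, strict adjusted p = 0.0425). Of the next 7 lower genes that the naming rule allowed, none overlapped between the arms. Their pooled log2 fold changes were -2.85 for the collagen Col8a2, -2.28 for fibromodulin (Fmod), -2.56 for fibrillin 2 (Fbn2), -2.55 for Nrep, a peptide of regenerating tissue, -2.07 for the adaptor Stap1, -1.58 for Lrrc32 and -1.49 for the pericyte regulator Rgs5.

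The fall reached most of the collagen matrix. Of 38 fibrillar collagen and matrix genes tested, 27 fell and 1 rose, against 7.17% and 8.79% of all genes, with a median of -1.15. All 27 had a negative sign in all 8 contrasts, as had 2141 of the 2192 lower calls among all genes. Without the 2 (dep)BCP+MSC libraries that stand apart, 24 fell and 0 rose. Col1a1, the main chain of type I collagen, was at 1173 to 4278 CPM with toxin and 2404 to 13224 CPM without (-1.31 ± 0.28, adjusted p = 0.00255). Col1a2 (-1.47) and Col3a1 (-1.56) fell by like amounts, although Col3a1 did not pass without the 2 libraries. Farther down were Col14a1 at 20.8 to 140.0 against 179 to 422 CPM (-2.08 ± 0.25), Col8a1 (-2.39) and the microfibril protein Mfap4 (-2.18). Postn, the matricellular periostin (-1.48), Sparc (-1.40), Ogn (-1.71) and Col6a1 (-1.28) fell too. Dcn, the small proteoglycan decorin, was at -0.08 (adjusted p = 0.817) and Fn1, fibronectin, at -0.57 (adjusted p = 0.10). The single higher gene, Tnn or tenascin W, was at 1.39 (adjusted p = 0.0355), and its call was lost on leaving out any of 10 single libraries, 5 of them toxin-treated.

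Enzymes and chaperones that finish collagen were lower as well: of 25 tested, 12 fell and 0 rose (median -0.61). This count was 7 without (dep)BCP+MSC replicate 2 and 5 without replicates 1 and 2. Serpinh1, the collagen chaperone, was at 118 to 565 CPM with toxin and 748 to 1459 CPM without, with no overlap (-1.88 ± 0.24, adjusted p = 1.30e-05). The prolyl hydroxylase P3h1 (-0.98) and Pcolce, which helps to cut procollagen (-1.22), fell, and the crosslinking enzyme Lox was at 0.39 (adjusted p = 0.314). Of 30 fibroblast and TGF-beta genes, 12 fell and 1 rose (9 and 1 without the 2 libraries), among the lower ones the fibroblast markers Dpt (-1.66 ± 0.24) and Pi16 (-1.46 ± 0.25). Tgfb1 (-0.44, adjusted p = 0.0519) and the smooth muscle actin Acta2 (-0.50, adjusted p = 0.0922) did not pass, and the higher gene was Ccn2 (1.09, adjusted p = 0.0374), a call that 10 of the 24 single-library omissions removed and that was also lost without the 2 libraries, where the 1 higher gene was another.

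**Figure D4:**
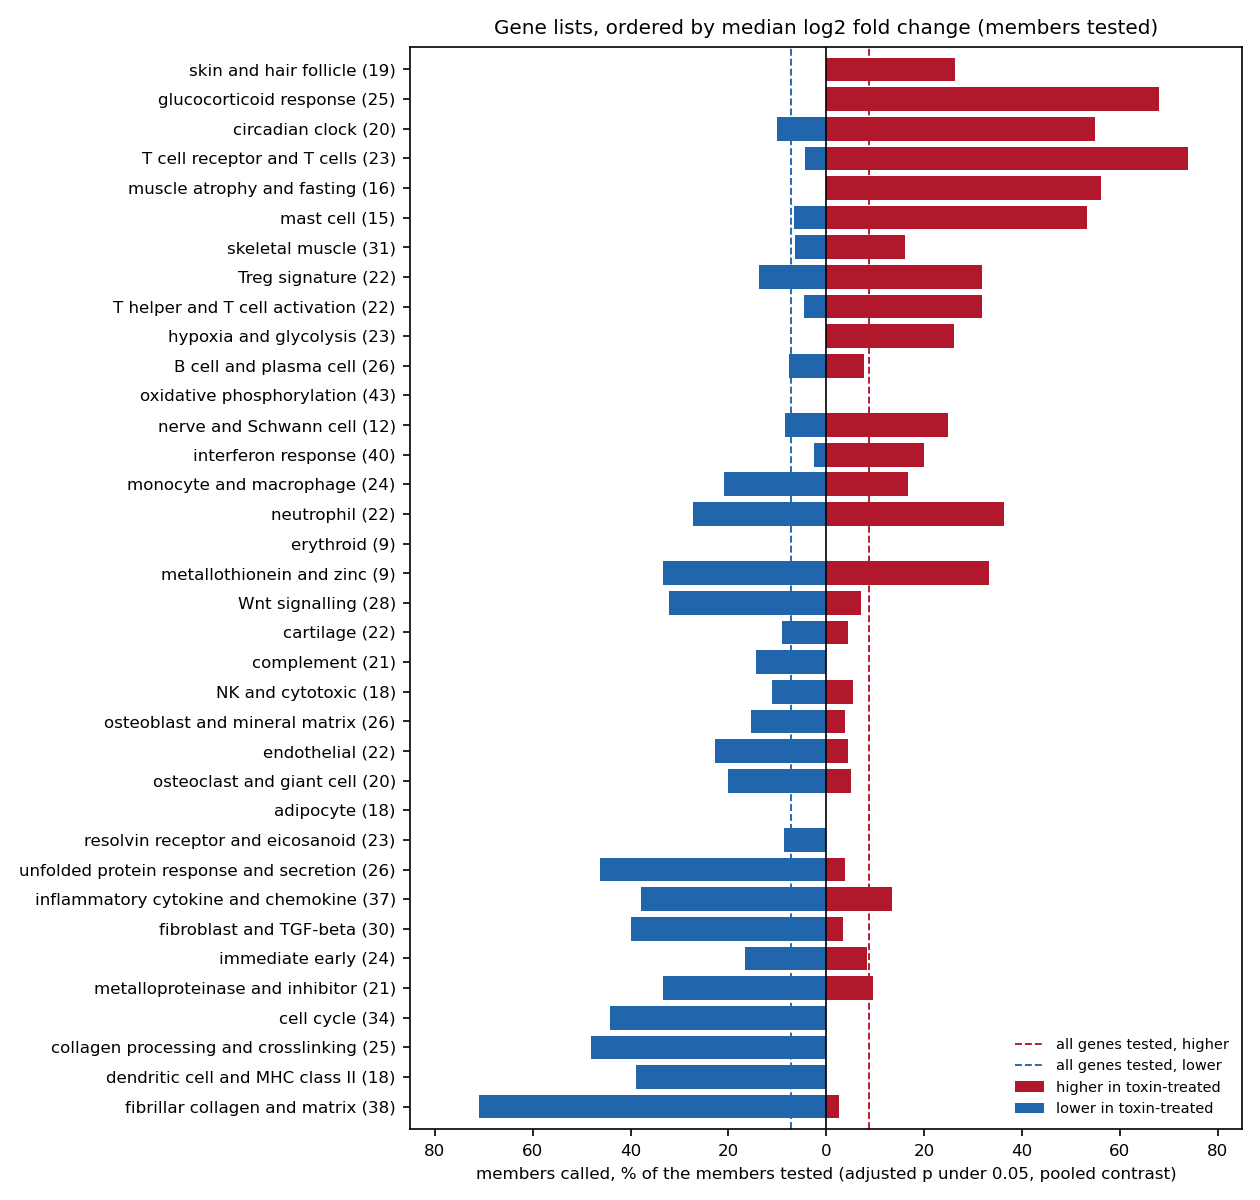
Share of tested genes higher (right) and lower (left) in the pooled comparison for each of the 36 gene lists, in percent, ordered by median log2 fold change, with dashed lines at the share among all genes (8.79% higher, 7.17% lower). The T cell and glucocorticoid lists reach farthest on the higher side and the fibrillar collagen and matrix list farthest on the lower side.

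Metalloproteinases and their inhibitors had 7 lower (33.3%) and 2 higher genes (9.52%) of 21, against 7.17% and 8.79% of all genes. The higher share was near that of all genes, and without the 2 libraries the counts were 5 and 3. Mmp9, a gelatinase of myeloid cells and osteoclasts, fell by 1.29 on the log2 scale and the aggrecanase Adamts4 by 2.02, while Mmp11 rose (1.92 ± 0.27) and so did the neutrophil collagenase Mmp8 (1.44 ± 0.26). Of 28 Wnt genes, 9 fell (32.1%) and 2 rose (7.14%, near the 8.79% of all genes), 4 and 1 without the 2 libraries. Beside Sfrp4, the antagonists Sfrp1 (-1.52 ± 0.27) and Frzb (-1.37) and the ligand Wnt10b (-1.80) fell, Frzb not without those libraries, whereas the feedback target Axin2 was at 0.01 (adjusted p = 1.0). The ligand Wnt4 was higher (1.52, adjusted p = 0.0262), but not without any one of (dep)BCP+MSC replicate 2 and (dep)BCP+MSC+RvE1inj replicates 3 and 4, each of which left 1 higher Wnt gene.

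The secretory pathway and the cell cycle were lower too, less firmly. Of 26 genes of the unfolded protein response and secretion, 12 fell and 1 rose, but 3 and 1 without the 2 libraries. The chaperone Hspa5 was at 348 to 739 CPM with toxin and 602 to 1339 without (-0.76 ± 0.16), and Calr (-0.81) and Hyou1 (-0.96) fell, while Chac1, a glutathione-degrading target of the stress factor Atf4, rose (1.73 ± 0.30). Of 34 cell cycle genes, 15 fell and 0 rose, with all but 1 log2 fold change below 0. The count was 9 without (dep)BCP+MSC replicate 1, without replicate 2 or without (dep)BCP+MSC+RvE1inj replicate 3, 24 without (dep)BCP+MSC column 5, and 3 without both replicates 1 and 2. Top2a, the topoisomerase of dividing cells (-0.98 ± 0.26), and its regulator Foxm1 (-0.90 ± 0.24) were no longer called without these replicates 1 and 2.

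T cell genes were higher. Of 23 genes of the T cell receptor and T cells, 17 rose, 16 of them with the same sign in all 8 contrasts, and 1 fell, with a median of 1.20, and without the 2 (dep)BCP+MSC libraries 20 rose. The receptor chain Cd3g was at 5.78, 4.89, 10.4 and 24.4 CPM in (dep)BCP+MSC and 25.5, 22.2, 16.6 and 17.5 CPM in (dep)BCP+MSC+RvE1inj, against 1.83 to 10.9 with a median of 4.91 without toxin (1.52 ± 0.29, adjusted p = 9.33e-04). The arms overlapped at the low end of the toxin-treated samples. The receptor constant region Trac (1.49 ± 0.27), the kinase Zap70 (1.56 ± 0.25), the scavenger receptor Cd6 (1.81 ± 0.19), the coreceptors Cd4 (0.94) and Cd8b1 (1.68) and the transcription factor Lef1 (1.44) rose. The mean log2 CPM of the list was 1.60 to 3.76 with toxin and 1.42 to 2.89 without, so it overlapped. It was 3.43 to 3.76 in (dep)BCP+MSC+RvE1inj, above every untreated sample, and 1.60 and 1.99 in (dep)BCP+MSC replicates 1 and 2, within the untreated range. The lower gene was Thy1 (-1.0 ± 0.19), which fibroblasts also carry.

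Of 22 T helper and activation genes, 7 rose and 1 fell (8 and 1 without the 2 libraries). Cd69, an early activation marker, was at 2.39 to 8.82 against 1.4 to 3.4 CPM (1.40 ± 0.20), and Slamf1, a coreceptor of lymphocytes, at 1.68 ± 0.35. Ifng, the cytokine of type 1 responses, was at 0 to 2.54 against 0 to 0.998 CPM, with an adjusted p of 0.0087, and most of its values were close to the floor. Il17f had 0 to 12 reads in each toxin-treated library and 0 to 2 in each untreated one, so no fold is given. The natural killer and cytotoxic list of 18 had 1 higher gene (5.56%) and 2 lower ones (11.1%), against 8.79% and 7.17% of all genes. The higher gene was the granzyme Gzmk (0.0241 to 3.49 against 0.0548 to 1.06 CPM, adjusted p = 0.00142), and the lower ones were the receptor Ncr1 (-1.69 ± 0.36) and the chemokine Xcl1. These counts moved with single libraries, the higher one to as many as 3 without (dep)BCP+MSC replicate 2 and the lower one to as many as 6 without (dep)BCP+MSC column 5, and without both replicates 1 and 2 they were 4 and 1. Of 26 B cell and plasma cell genes, 2 rose and 2 fell, shares near those of all genes, with the adaptor Bank1 at -1.79 ± 0.33 and the antibody constant region Ighg2c at 1.73 but not of 1 sign in all 8 contrasts (-0.36 to 3.29).

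Macrophage genes moved in both directions. Of 24 tested, 4 rose and 5 fell (4 and 2 without the 2 libraries, and 3 lower without (dep)BCP+MSC replicate 2 alone or without (dep)BCP+MSC+RvE1inj replicate 4). Cd163, the haemoglobin scavenger receptor of tissue macrophages that glucocorticoids are known to raise, was at 490.4, 606, 449.5 and 397 CPM in (dep)BCP+MSC and 486, 491, 452 and 598 CPM in (dep)BCP+MSC+RvE1inj, against 23.7 to 278 with a median of 87.3 without toxin. The arms did not overlap (2.20 ± 0.33, adjusted p = 1.02e-04). Clec10a, a lectin of alternatively activated macrophages that was outside these lists and was chosen after its values were seen, was at 442 to 1004 against 55.7 to 392 CPM (1.87 ± 0.23), also without overlap, and the apoptotic cell receptor Mertk rose (1.19 ± 0.22). Beside Cx3cr1, lysozyme Lyz2 (-1.10 ± 0.24) and the endotoxin coreceptor Cd14 (-0.84 ± 0.21) fell, Cd14 not without the 2 libraries. The pan-macrophage genes Csf1r (-0.01, adjusted p = 1.0), Cd68 (-0.10, adjusted p = 0.827) and Adgre1 (-0.53, adjusted p = 0.0671) did not pass.

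Neutrophil genes moved in both directions as well. Of 22 tested, 8 rose and 6 fell (7 and 5 without the 2 libraries, and 5 higher without (dep)BCP+MSC column 5). The granule genes Ngp (1.12 to 23.7 against 0 to 3.14 CPM, 3.28 ± 0.73), Camp (3.11 ± 0.58) and Ltf (0.834 to 117 against 0.0629 to 20.9 CPM, 3.44 ± 0.67), which are made during neutrophil maturation, rose. Ngp and Ltf were no longer called with skin as a covariate, nor Ngp without the libraries under 20000000 counts. Cxcr2, the chemokine receptor of mature neutrophils, was at 0.798, 3.9, 9.13 and 22.4 CPM in (dep)BCP+MSC and 19.3, 6.37, 3.21 and 5.15 CPM in (dep)BCP+MSC+RvE1inj, against 20 to 46.7 without toxin (-1.61 ± 0.38), and the receptor Csf3r was lower as well (-0.80 ± 0.18).

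Of 15 mast cell genes, 8 rose, 7 of them with the same sign in all 8 contrasts, and 1 fell, with a median of 0.94 (6 and 1 without the 2 libraries, and 5 higher without (dep)BCP+MSC+RvE1inj replicate 2). Fcer1a, the chain of the IgE receptor that binds the antibody, was at 6.88, 13.9, 6.28 and 7.66 CPM in (dep)BCP+MSC and 5.53, 9.7, 7.09 and 8.88 CPM in (dep)BCP+MSC+RvE1inj. It was at 0.126 to 2.45 CPM with a median of 1.52 in untreated samples, a gap without overlap (2.53 ± 0.30, adjusted p = 5.93e-06, 2.33 to 2.72 over the 8 contrasts). The tryptase Tpsab1 rose (1.91 ± 0.34), and so did the stem cell factor receptor Kit (1.23 ± 0.29), though Kit not without the 2 libraries. The proteases Cpa3 (0.82, adjusted p = 0.0548) and Mcpt4 (0.03, adjusted p = 1.0) did not pass.

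Dendritic cell genes were lower. Of 18 dendritic cell and class II genes, 7 fell, 6 of them with the same sign in all 8 contrasts, and 0 rose, with a median of -0.68 and no positive value. The count was 6 without the 2 libraries and 13 without (dep)BCP+MSC column 5. Siglech, a marker of plasmacytoid dendritic cells, was at 0 to 1.11 CPM with toxin and 1.74 to 8.71 without (-2.85 ± 0.49), and Flt3, the receptor for their growth factor, at 0.337 to 2.62 against 3.08 to 6.72 (-1.48 ± 0.25), both without overlap. The integrin Itgax (-1.37 ± 0.26), the lectin Cd209a (-2.11 ± 0.44) and Ccr7, which guides dendritic cells to lymph nodes (-1.52 ± 0.23), fell. The class II genes H2-Ab1 (-0.68, adjusted p = 0.142) and Cd74 (-0.71, adjusted p = 0.0957) did not pass.

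Inflammatory cytokines and chemokines had 14 lower and 5 higher genes of 37 tested, 4 of the higher ones with the same sign in all 8 contrasts (median -0.46). Without the 2 libraries there were 7 lower and 4 higher, and the higher count was 2 without (dep)BCP+MSC column 5 and 3 without (dep)BCP+MSC+RvE1inj replicate 4. Il1b was at 1.69, 2.07, 17.3 and 76.6 CPM in (dep)BCP+MSC and 56.4, 8.24, 16 and 9.48 CPM in (dep)BCP+MSC+RvE1inj, against 61 to 208 with a median of 129.8 without toxin, and 1 toxin-treated sample lay within the untreated range (-2.41 ± 0.58, adjusted p = 0.00808). Tnf was lower (-1.30 ± 0.23, 4.03 to 18.3 against 17.8 to 35.7 CPM), as were the neutrophil chemokine Cxcl2 (-2.02 ± 0.40) and the macrophage growth factor Csf1 (-1.09 ± 0.23). Cxcl13, which draws B cells and follicular T cells, went the other way, at 14.3 to 94.4 CPM with toxin and 0.183 to 14.6 CPM without (3.31 ± 0.48, adjusted p = 9.86e-05). Il6 was at 0.48 (adjusted p = 0.558), with contrasts of both signs.

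Of 40 interferon response genes, 8 rose, 7 of them with the same sign in all 8 contrasts, and 1 fell, with a median of -0.02. Without the 2 libraries 13 rose and 0 fell, and the lower count of 1 was 0 to 3 with single libraries left out. The higher genes were GTPases and a peptide transporter that interferon gamma induces, such as Gbp4 (7.76 to 46 against 4.28 to 22.8 CPM, 1.45 ± 0.23) and Iigp1 (1.64 ± 0.38). Igtp (1.39) did not keep its sign in all 8 contrasts (-0.09 to 2.62). The type I interferon target Isg15 (-0.89, adjusted p = 0.128) did not pass.

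**Figure D5:**
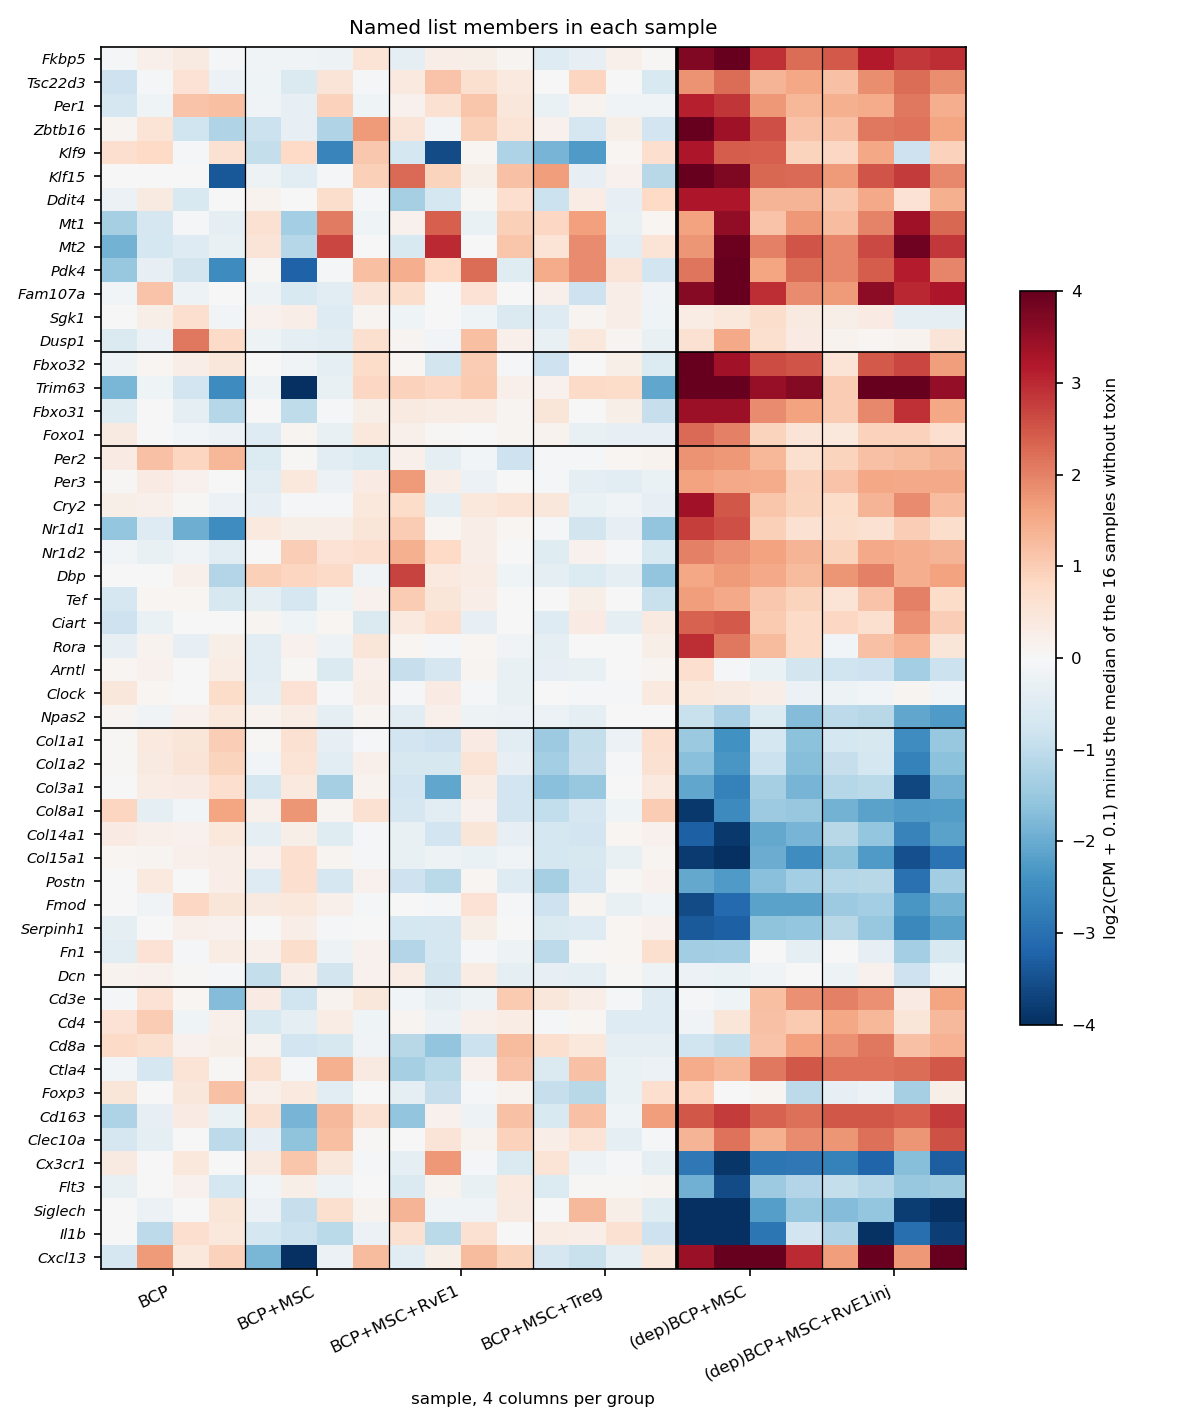
Log2(CPM + 0.1) of named genes in each of the 24 samples, minus the median of the 16 untreated samples, with genes in rows by list and samples in columns, 4 per group (colour scale from -4 to 4). The 8 toxin-treated columns on the right are mostly red (higher) for glucocorticoid and clock genes and mostly blue (lower) for matrix genes, while Foxp3, Dcn, Clock and Sgk1 are pale.

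Genes of bone and cartilage were mostly low and little changed. Of 26 osteoblast and mineral matrix genes, 4 fell (15.4%) and 1 rose (3.85%), against 7.17% and 8.79% of all genes (2 and 0 without the 2 libraries). Smpd3, a sphingomyelinase needed for mineralisation, was at 4.19 to 27.6 CPM with toxin and 15.2 to 293 CPM without (-2.79 ± 0.52, adjusted p = 0.00103). Dmp1, a matrix protein of osteocytes, was lower, at 0 to 0.431 against 0.411 to 1.45 CPM. Its toxin values were close to or under 0.354 CPM, the floor in the shallowest library, so no fold is given for it. The osteoblast factor Runx2 (-0.35, adjusted p = 0.15) and the phosphatase Alpl (0.49, adjusted p = 0.436) did not pass. Ibsp, bone sialoprotein, was at 0 to 0.241 against 0 to 15.4 CPM (adjusted p = 0.084), and its untreated groups were far apart. It had 0 to 15 reads in each toxin-treated library, 0 to 3 in BCP, 20 to 1040 in BCP+MSC, 35 to 399 in BCP+MSC+RvE1 and 6 to 28 in BCP+MSC+Treg. The fitted log2 fold changes were negative against the 3 groups with MSC and positive against BCP (-5.94 to 3.16), the latter resting on almost no reads on the BCP side. Osteocalcin, Bglap, was at 0 to 0.289 against 0 to 0.475 CPM (adjusted p = 0.476), and no fold is given for a gene this close to the floor. Of 22 cartilage genes 1 rose (4.55%) and 2 fell (9.09%), against 8.79% and 7.17% of all genes. Lubricin, Prg4, was at 14.2 to 93 against 3.4 to 12.7 CPM without overlap (2.49 ± 0.28), and the matrix proteins Cilp (-1.77 ± 0.32) and Acan were lower. The 2 lower genes were 1 without any of 14 single libraries. Of 20 osteoclast and giant cell genes 4 fell (20%) and 1 rose (5%), against the same shares of all genes (2 and 1 without the 2 libraries). Dcstamp, which cells need in order to fuse, was at 1.4 to 16 CPM with toxin and 17.3 to 38.3 CPM without, with no overlap (-1.79 ± 0.37, adjusted p = 0.00209), and the integrin Itgb3 fell (-0.84), though not without the 2 libraries, while the acid phosphatase Acp5 (-0.28, adjusted p = 0.346) and the collagenase Ctsk (0.09, adjusted p = 0.815) did not pass.

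In vessels, 5 of 22 endothelial genes fell and 1 rose (7 and 1 without the 2 libraries), with the apelin receptor Aplnr at 2.39 to 16.8 against 11.7 to 80.9 CPM (-2.65 ± 0.34) and the sprouting marker Esm1 at -2.20, a call lost without the 2 libraries, while Pecam1 was at -0.10 (adjusted p = 0.657). Of 19 skin and hair follicle genes 5 rose, 3 of them with the same sign in all 8 contrasts, and none fell, with a median of 1.77 (2 or 3 rose without any of 10 single libraries), and without the 2 libraries none was called and the median was 0.17. Perp, a desmosome protein, was at 2.8 to 60.5 against 0.126 to 11.7 CPM. Of 12 nerve and Schwann cell genes 3 rose and 1 fell, and 0 did either without the 2 libraries. Of 24 immediate early genes 2 rose (8.33%, near the 8.79% of all genes) and 4 fell (up to 8 fell without BCP replicate 1). Of 21 complement genes 0 rose and 3 fell (14.3%, against 7.17% of all genes, and 1 fell without any of several single libraries). Of 23 resolvin receptor and eicosanoid genes 0 rose and 2 fell (8.70%, near the 7.17% of all genes). The 2 lower ones were enzymes of prostaglandin synthesis, Ptgs2 (-1.74 ± 0.44) and Ptges, neither of them called without the 2 libraries. None of 18 adipocyte, 9 erythroid or 43 oxidative phosphorylation genes was called by edgeR, with medians of -0.32, -0.13 and 0.05.

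Between the toxin groups no gene passed in the main test. Of 30564 genes, 0 differed between (dep)BCP+MSC+RvE1inj and (dep)BCP+MSC in edgeR's test, in which the smallest adjusted p was 0.668, DESeq2 called 8, and 2269 had an unadjusted p under 0.05 (1059 higher and 1210 lower with RvE1 injection). The higher genes named above lay lower in the injected group by the fitted value in most cases, with log2 differences (injected minus not injected) of -0.60 for Fkbp5, -0.86 for Depp1, -1.08 for Arrdc2, -1.53 for Zbtb16 and -1.65 for Trim63. The T cell genes Cd3g (0.84), Cd8b1 (1.49) and Zap70 (0.96) and the lower genes Sfrp4 (1.0) and Arsi (0.87) lay higher in it. None of these differences passed edgeR's test, which does not show that the groups were alike. Both libraries that stand apart belong to the group without injection. Fkbp5, Depp1, Arrdc2, Zbtb16 and Trim63 were above all 4 injected samples in these libraries (replicates 1 and 2). In columns 4 and 5, Depp1 and Arrdc2 lay within the range of the injected samples, as did Trim63, while Fkbp5 lay within it in column 4 and below it in column 5, and Zbtb16 above it in column 4 and below it in column 5.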

How the data were processed

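RNA from 24 constructs (RNeasy) was made into TruSeq Stranded mRNA libraries and sequenced as paired ends on an Illumina instrument, per the study's methods. The authors aligned the reads with HISAT2 2.0.5 and deposited whole-number read counts per gene made with featureCounts 1.5.2 on GENCODE M13. Per the file headers no strand, overlap or multi-mapping option was set, so a gene and its antisense partner cannot be told apart and reads shared by near-identical genes were left out. The table held 51138 genes, of which 50376 were matched to a symbol. Total counts per sample were 8482701 to 144417743, and depth limits precision through a floor of 3 counts.

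Genes with at least 10 counts in total (30564) were fitted with edgeR 4.0.16 (R 4.3.3, limma 3.58.1) by the robust quasi-likelihood test on 6 groups with TMM scaling and no covariates, with Benjamini-Hochberg adjustment of each contrast across the 30564 genes. The pooled contrast was the mean of the 2 toxin groups minus the mean of the 4 others. For the strict rule the largest of the 8 pairwise p-values, set to 1 unless all 8 signs agreed, was adjusted in the same way. Values are log2 fold changes with standard errors (SE) from this fit, and CPM are TMM-scaled. The mean level of a list used log2 CPM with a prior count of 2. The exact permutation test used log2(CPM + 0.1) over 735471 arrangements, with a smallest possible p of 1.36e-06.

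The genes named by rule were Foxp3 and the 14 with the smallest largest p in each direction. Members of the 36 lists, and Clec10a, were named after their values were seen. The members, lists and tests were chosen with earlier results of these data known. Simulated counts of 30035 genes took their gene means and library sizes from these data. Changed genes were drawn from well-counted ones only, the spread was set by a formula, and no simulated library stood apart. All 100 genes changed by 1 on the log2 scale were called in the pooled contrast and 13 by the strict rule. All 100 changed by 2 were called by both, and 9 and 0 of 29835 unchanged genes were called. Shares found or falsely called in the real samples can differ from these and were not measured. Alternatives were the scaling (RLE), filters, DESeq2 1.42.0, the replicate number as a block, sex, skeletal muscle, skin or total count as covariates, a 2-group model, a fold threshold and each library left out. Leaving out the 2 (dep)BCP+MSC libraries that stand apart, or the 7 under 20000000 counts, was chosen after seeing the data. Replicates are separate animals. The labels give no batch. Promoter windows are RefSeq's (GRCm38.p6) for 27025 genes, 7 of the 11 genes of the strict rule among them. Some genes are not reported here.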

Additional observations from a re-analysis of the deposited data

Results flagged for a closer look

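Among the 28 genes named by rule and Foxp3, 203 groups of 4 samples or of the 8 toxin-treated samples were examined for a sample far from the others on the log2 CPM scale, and 11 (5.42%) were flagged, where chance flags about 1 in 20. Among untreated groups, Fkbp5 was at 6.00 in BCP+MSC replicate 4 (next 5.30), Fam107a at 0.98 in BCP replicate 2 (next -0.23), Kif28 at -4.25 in BCP replicate 3, the single library of that group with reads, and Pik3ip1 at 2.59 in BCP+MSC+Treg replicate 4 (next 3.37). H2-Q6 was at 5.98 in BCP+MSC replicate 3 (next 5.40), Arsi at 5.45 in BCP+MSC+Treg replicate 2 (next 6.22), Fmod at 5.10 in BCP+MSC+RvE1 replicate 3 (next 4.48) and Rgs5 at 7.37 in BCP replicate 4 (next 7.10). In the toxin groups, Sfrp4 was at 2.63 in (dep)BCP+MSC+RvE1inj replicate 1 (next 2.35) and, among all 8 toxin-treated samples, at -0.45 in (dep)BCP+MSC replicate 1 (next 1.20), and Cx3cr1 was at 0.37 in (dep)BCP+MSC replicate 2 (next 1.42). None of the flagged samples crossed into the range of the other arm, and the pooled calls of these 10 genes were kept without each of these libraries. Their selection from the same samples made both likely.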

How the results depend on the processing

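The pooled counts of 2686 higher and 2192 lower genes were 1271 and 1093 with skin as a covariate, 1229 and 975 without the 2 (dep)BCP+MSC libraries that stand apart, 943 and 745 without the 7 libraries under 20000000 counts, and 1707 and 1037 beyond a log2 fold change of 1. With 1 library left out they were 1997 to 2809 and 1621 to 2305. The strict counts of 4 and 7 were 44 and 71 with DESeq2, 17 and 17 with muscle as a covariate, 1 and 3 with skin, 2 and 4 with total count, 0 and 0 without the libraries under 20000000 counts, 20 and 31 with each contrast adjusted on its own, 4 lower with genes of at least 1 count, 2 lower without the 2 libraries, and 1 to 7 and 0 to 8 with 1 library left out. Fewer samples were fitted with 1 library left out, without the 2 libraries and without those under 20000000 counts. What drove any of these shifts was not tested. Between the toxin groups, 0 genes became 8 with DESeq2. The pooled calls of the 28 genes named by rule held in 1008 of 1008 refits. These genes were picked as the most extreme in the same samples, so that result was likely beforehand. All named genes gave 7026 of 7196 unchanged calls, 120 lost, 50 gained and none of opposite sign, and list counts moved beyond 1.5-fold in 345 of 2592. Counts of 1 to 3 genes in a list moved by that much on leaving out single libraries in many lists. Depth limits genes near the floor of 0.354 CPM in the shallowest library.

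Replicate numbers did not pair the samples: deviations from group means correlated with a median of 0.01 over 50 pairs of the same number (-0.64 to 0.58, 19 above 0.1) and -0.03 over 150 pairs of different numbers. With the replicate number as a block, on the 22 numbered samples, the pooled counts were 2452 and 2357, the strict counts 8 and 12, and 344 genes differed between the toxin groups, where this fit kept no (dep)BCP+MSC libraries other than the 2 that stand apart. Without those 2 libraries, and with no block, 0 genes differed.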
